A study of Homo sapiens with 15 samples.

Results

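The genes described here are dysferlin (DYSF) and 9 annexins (ANXA1, ANXA2, ANXA3, ANXA4, ANXA5, ANXA6, ANXA7, ANXA11 and ANXA13), 10 of the 35012 gene symbols in the count table of HepG2 cells depleted of BRG1, BRM or both. They were taken by symbol from a list chosen by measured values of these libraries. No threshold defines the list, and which values shaped it is not stated, so levels and changes are given as a description for every contrast. All 10 passed the filter on low counts. The cells were HepG2, a human liver cancer cell line with hepatocyte features. All 15 libraries came from cells infected with lentivirus, kept under puromycin selection and collected on day 5 after transduction. In the BRG1 group (4 libraries) the hairpin targeted BRG1, the ATPase encoded by SMARCA4. In the BRM group (3 libraries) it targeted BRM, the alternative ATPase encoded by SMARCA2. The double group (4 libraries) received both hairpins, and the NS group (4 libraries) received a non-silencing hairpin, so no group is uninfected. The labels do not give the hairpin sequences or say whether libraries of a group came from separate cultures, so p-values measure the spread between these libraries, which may be technical.

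Annexins are cytosolic proteins that bind acidic phospholipids, mainly phosphatidylserine, when calcium rises, and several are recruited to the edge of a torn plasma membrane. Dysferlin is a membrane-anchored protein of the ferlin family with a row of C2 domains; its loss in skeletal muscle causes a muscular dystrophy with poor membrane resealing, and ANXA1 and ANXA2 have been found in complex with it. S100 proteins, calcium-binding EF-hand proteins, join the N-terminal tails of some annexins and bridge membranes. BRG1 and BRM are the mutually exclusive motors of SWI/SNF complexes, which move nucleosomes.

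The DNA upstream of DYSF, ANXA1 and ANXA7 is shown because these are members that changed in a single knockdown and have at least 100 bases of the 250 before their start outside annotated exons. Sequences are from RefSeq on GRCh38.p14, read 5′ to 3′ on the gene's strand. Capitals mark motif matches found on either strand. For the stress-responsive factor AP-1 the letters searched were TGANTCA. For the TEAD factors of the Hippo pathway they were GGAATG, and for the TATA box of core promoters they were TATAAA. For a partial site of HNF4, the nuclear receptor of hepatocytes, they were CAAAGT.
DYSF, chr2:71453311-71453560, plus strand: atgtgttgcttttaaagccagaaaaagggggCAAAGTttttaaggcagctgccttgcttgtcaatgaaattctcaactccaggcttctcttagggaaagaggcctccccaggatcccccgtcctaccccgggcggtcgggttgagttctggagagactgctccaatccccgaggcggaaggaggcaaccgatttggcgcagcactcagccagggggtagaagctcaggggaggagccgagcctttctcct
ANXA1, chr9:73151615-73151756, plus strand: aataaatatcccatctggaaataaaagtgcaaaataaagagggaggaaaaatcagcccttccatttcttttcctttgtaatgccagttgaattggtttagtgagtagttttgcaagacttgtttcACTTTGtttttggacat
ANXA7, chr10:73414068-73414308, minus strand: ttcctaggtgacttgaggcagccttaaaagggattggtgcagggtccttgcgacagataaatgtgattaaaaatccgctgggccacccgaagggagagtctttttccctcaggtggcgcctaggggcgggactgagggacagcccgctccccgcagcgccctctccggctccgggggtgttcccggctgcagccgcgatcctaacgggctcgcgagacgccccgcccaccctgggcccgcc
Over their whole 250-base windows the sequences differed in composition. The ANXA1 window was 38.4% G+C with 0 CpG dinucleotides, the DYSF window 56.4% with 9 and the ANXA7 window 66% with 20, beside medians of 58% and 11 over 35116 promoters. DYSF held CAAAGT 219 bases before its start. ANXA1 held it 125 bases before its start and TATAAA 31 bases before it, inside an annotated exon that is not printed. ANXA7 held none of the motifs. No match overlapped another, and the share of all promoters holding each motif was 6.57% for AP-1, 11.9% for TEAD, 10.7% for the TATA box and 10.3% for the HNF4 partial site. Of the 10 genes 9 were matched in the promoter table, all but ANXA13. Among the others, ANXA2 held TGANTCA 127 and TATAAA 31 bases before its start, ANXA11 held TATAAA or CAAAGT at separate starts, and the windows of ANXA3, ANXA4, ANXA5 and ANXA6 held none.

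The targeted genes were low in the libraries labelled for them. SMARCA4 averaged 27.8 ± 2.32 CPM (counts scaled to library size) in BRG1 libraries, 346 ± 86.7 CPM in BRM libraries, 46.2 ± 6.09 CPM in double libraries and 307 ± 6.99 CPM in NS libraries (SD, n = 4, 3, 4 and 4). SMARCA2 averaged 25.8 ± 3.64 CPM in BRG1, 4.38 ± 2.22 CPM in BRM, 2.57 ± 0.299 CPM in double and 39.2 ± 4.05 CPM in NS libraries. The estimated counts summed to between 11500149 and 27187991 per library. Libraries numbered 1 and 2 had 4.97% to 8.33% of counts from mitochondrial genes and those numbered 3 and 4 had 1.33% to 3.55%, in every group; the labels do not say what the numbers mark, and changes within each pair of numbers are given below for some of the results. Hepatocyte markers were present in all libraries (none of 10 at 0). Their summed level ranged from 5590 to 19000 CPM in BRG1, 50200 to 54600 CPM in BRM, 11200 to 25600 CPM in double and 24200 to 37700 CPM in NS libraries. Single markers did not all follow the sum. ALB did, averaging 7410 CPM in NS, 16900 CPM in BRM and 2210 CPM in double libraries. TTR averaged 116 CPM in NS but 39.3 CPM in BRM libraries, and SERPINA1 5570 CPM in NS but 6350 CPM in double libraries. The 5 cholangiocyte markers summed to 2880 to 5020 CPM in BRG1, 515 to 1030 CPM in BRM, 1290 to 2780 CPM in double and 1020 to 1510 CPM in NS libraries. The 5 blood markers, led by LYZ with CD68 next, summed to 688 to 1410 CPM in BRG1, 137 to 249 CPM in BRM, 329 to 446 CPM in double and 483 to 1700 CPM in NS libraries. The 6 stromal markers, led by COL1A1 with PDGFRB next, summed to 56.8 to 245 CPM in BRG1, 13.6 to 26 CPM in BRM, 20.8 to 39.8 CPM in double and 31.6 to 72 CPM in NS libraries, and the 4 endothelial markers to at most 9.96 CPM. CFTR, LUM, KDR and HBB were at 0 throughout at least 1 group. The part of any marker shift in the results below was not tested. In bulk RNA, fewer cells of a type and less RNA per cell cannot be told apart.

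In NS cells ANXA5 and ANXA4 were the most abundant of the 10 per length and DYSF the least. Per kilobase of merged exons, ANXA5 stood at 210 CPM (range 183 to 227 over the 4 NS libraries), ANXA4 at 105 CPM (61.7 to 156), ANXA6 at 84.8 CPM (64.9 to 101) and ANXA2 at 54.6 CPM (33.5 to 71.4). ANXA7 had 32.1 CPM per kilobase (28 to 35.3), ANXA11 19.1 (17.8 to 21.1) and ANXA3 6.88 (3.64 to 11.1). ANXA1 at 0.862 (0.0978 to 2.02), ANXA13 at 0.341 (0.122 to 0.603) and DYSF at 0.126 (0.0557 to 0.23) overlapped one another. Neighbours from ANXA4 down to ANXA7 overlapped too, whereas ANXA5 lay above ANXA4, and the ranges of ANXA7, ANXA11, ANXA3 and ANXA1 were separate from each other.

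Across the 10 genes, BRG1 knockdown raised DYSF, ANXA1 and ANXA3 and lowered ANXA4, while BRM knockdown raised ANXA4 and ANXA7 and the double knockdown raised ANXA7 and DYSF. A gene is called changed where the Benjamini-Hochberg adjusted p of edgeR's quasi-likelihood F test, over all 14621 genes tested, is under 0.05. Against NS, 4 members were called after BRG1 knockdown, where 22.5% of all genes tested were, 3 of them higher (12.5% of all genes) and 1 lower (9.97%). After BRM knockdown 2 were called, where 13.9% of all genes were, both higher (7.66% of all genes, with 6.26% lower). After the double knockdown 2 were called, where 21.6% of all genes were, both higher (11.8% of all genes, with 9.9% lower). Groups did not overlap for 3 members after BRG1 knockdown (28.5% of all genes), 3 after BRM knockdown (23.3%) and 2 after the double knockdown (27.3%). The median log2 change of the 10 members was 0.20 after BRG1 knockdown, -0.07 after BRM knockdown and 0.19 after the double knockdown, beside 0.02, 0.03 and 0.02 over all genes in those comparisons. With the replicate number as a block, 6 members were called in BRG1 against NS, where 5318 of the 14621 genes were. That fit called 4 members and 4153 of all genes in BRM against NS. In the double knockdown against NS it called 4 members and 5200 of all genes. Since the list was drawn up with these values known, nothing is read from its counts.

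**Figure D1:**
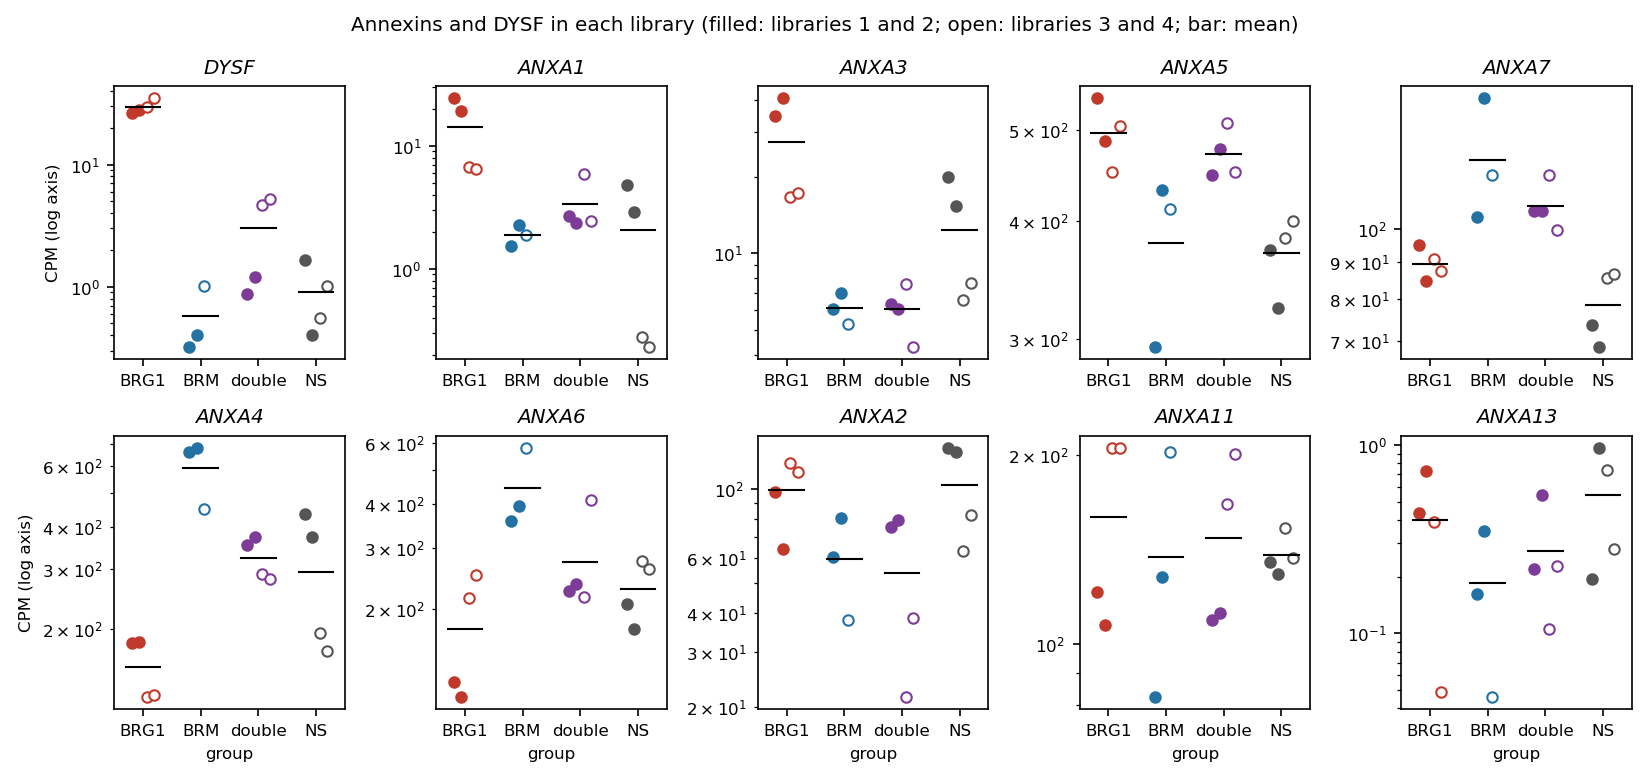
CPM (log axis, a scale of its own per gene) of DYSF and the 9 annexins in each library of the BRG1, BRM, double and NS groups, with filled points for libraries 1 and 2, open points for libraries 3 and 4 and a bar at the group mean. DYSF lies between 26.4 and 34.8 CPM in BRG1 libraries and at 5.26 CPM or less in the libraries of the other groups.

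DYSF (GRCh38 chr2:71453722-71686768, plus strand), the ferlin of the group, was barely detected in NS cells and far higher after BRG1 knockdown. It had 26.4, 28.1, 29.7 and 34.8 CPM in BRG1 libraries 1 to 4, 0.322, 0.4 and 1.01 CPM in BRM libraries 1 to 3, 0.875, 1.21, 4.67 and 5.26 CPM in double libraries 1 to 4, and 1.65, 0.4, 0.553 and 1.02 CPM in NS libraries 1 to 4. Every BRG1 library lay above every library of the other groups, double libraries 3 and 4 lay above the NS range, and the BRM range overlapped the NS range. The group means were 29.7 ± 3.65 CPM in BRG1, 0.579 ± 0.379 CPM in BRM, 3.01 ± 2.28 CPM in double and 0.907 ± 0.562 CPM in NS libraries (SD, n = 4, 3, 4 and 4), from 5 to 34 counts per NS library. BRG1 knockdown raised DYSF 31-fold (log2 change 4.96 ± 0.60 SE, edgeR adjusted p = 5.47e-05), by 4.60 within libraries 1 and 2 and 5.21 within libraries 3 and 4. After BRM knockdown the log2 change was -0.65 ± 0.67 (edgeR adjusted p = 0.6). The 5 muscle markers, of the tissue where dysferlin is best known, summed to 2.64 to 5.84 CPM in BRG1, 13.9 to 17.4 CPM in BRM, 7.83 to 25.5 CPM in double and 5.35 to 24.8 CPM in NS libraries, with DES, MYH7 and MB under 1 CPM on average in each group.

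With both hairpins DYSF rose less, and unevenly. The log2 change against NS was 1.67 ± 0.56 (edgeR adjusted p = 0.0457), made up of -0.11 within libraries 1 and 2 and 2.50 within libraries 3 and 4. Those within-number values differed by 2.66 (edgeR adjusted p = 0.0298), a test added after the data had been seen. The call ended without NS library 2 (1.40, edgeR adjusted p = 0.12), NS library 3 (1.51, 0.11), NS library 4 (1.70, 0.0871), double library 3 (1.32, 0.159) or double library 4 (1.23, 0.142), and with no filter on low counts (1.66, 0.0725), in a range of 0.000375 to 0.891 over all 15 alternatives. Relative to BRG1 knockdown alone, DYSF fell by 3.29 on the log2 scale in the double knockdown (SE 0.54, edgeR adjusted p = 0.0014), to 0.102 of its level, with no overlap. In the same contrast SMARCA4 was higher in the double group (46.2 CPM) than in the BRG1 group (27.8 CPM), and the part of that difference was not tested.

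ANXA1 (chr9:73151757-73170393, plus strand), a glucocorticoid-induced protein that signals through formyl peptide receptors when secreted, was also highest after BRG1 knockdown. It had 24.2, 19.2, 6.74 and 6.44 CPM in BRG1 libraries, 1.53, 2.25 and 1.89 CPM in BRM libraries, 2.68, 2.36, 5.86 and 2.46 CPM in double libraries, and 4.81, 2.88, 0.277 and 0.232 CPM in NS libraries. The BRG1 libraries lay above all others, while the NS libraries split by number, 3 and 4 holding 3 and 5 counts. BRG1 knockdown raised ANXA1 by 2.76 ± 0.75 on the log2 scale (edgeR adjusted p = 0.0162), by 2.47 within libraries 1 and 2 and by 4.66 within libraries 3 and 4. Without BRG1 library 1 the change was 2.32 and missed the threshold (edgeR adjusted p = 0.0585, the highest of 15 alternatives, which reached down to 2e-04).

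The other contrasts of ANXA1 turned with the library number. After BRM knockdown its log2 change against NS was -0.13 ± 0.81 (edgeR adjusted p = 0.945), with -1.01 within libraries 1 and 2 and 2.82 within libraries 3 and 4. After the double knockdown it was 0.69 ± 0.73 (edgeR adjusted p = 0.561), with -0.63 and 4.01. BRG1 knockdown gave a higher value than NS in both pairs of numbers, and the other knockdowns changed sign between them. Relative to BRG1 knockdown, ANXA1 in the double knockdown was at 0.238 of the level (log2 change -2.07 ± 0.73, edgeR adjusted p = 0.086), with no overlap between the groups. Within libraries 1 and 2 that change was -3.10 (edgeR adjusted p = 0.000131) and within libraries 3 and 4 it was -0.65 (edgeR adjusted p = 0.31). DESeq2 called it (-2.06, adjusted p = 0.0281), in a range of 0.000131 to 0.31 over 15 alternatives.

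ANXA3 (chr4:78551519-78610451, plus strand) had its highest mean after BRG1 knockdown and its lowest means where BRM was depleted, alone or together with BRG1. It had 34.6, 40.7, 16.7 and 17.3 CPM in BRG1 libraries, 6.04, 7 and 5.26 CPM in BRM libraries, 6.34, 6.07, 7.55 and 4.29 CPM in double libraries, and 19.9, 15.4, 6.55 and 7.67 CPM in NS libraries. The BRG1 and NS ranges overlapped only because libraries 1 and 2 ran higher than 3 and 4 in both groups, and the BRM and double ranges overlapped each other. BRG1 knockdown raised ANXA3 by 1.14 ± 0.37 (log2, edgeR adjusted p = 0.0374), by 1.09 and 1.21 within the pairs of numbers. The call ended without BRG1 library 1 (0.95, edgeR adjusted p = 0.125), BRG1 library 2 (0.83, 0.156), NS library 2 (1.20, 0.0523), NS library 3 (0.93, 0.101) or NS library 4 (0.96, 0.104), in a range of 0.00142 to 0.156 over 15 alternatives.

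In the double knockdown ANXA3 did not keep that increase. The double knockdown held 0.223 of the level of BRG1 knockdown (log2 change -2.17 ± 0.38, edgeR adjusted p = 0.00219), with no overlap. Against NS the log2 change was -1.02 ± 0.41 after BRM knockdown (edgeR adjusted p = 0.116) and -1.03 ± 0.37 after the double knockdown (edgeR adjusted p = 0.0623). With the replicate number as a block, the double knockdown value was -0.91 and passed (edgeR adjusted p = 0.0139, in a range of 0.000656 to 0.424 over 15 alternatives). It also passed in DESeq2 (-1.05, adjusted p = 0.0265), and was -1.51 within libraries 1 and 2 and -0.30 within libraries 3 and 4. The BRM value passed with the pair of library numbers as a term (-1.04, edgeR adjusted p = 0.00895, in a range of 0.00107 to 0.311 over 14 alternatives), and was -1.43 and -0.53 within the pairs of numbers. Whether ANXA3 fell below NS thus depended on the fit in both groups.

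ANXA4 (chr2:69644425-69827100, plus strand), an annexin abundant in epithelia, moved in opposite directions in the single knockdowns. It had 182, 183, 127 and 128 CPM in BRG1 libraries, 659, 678 and 449 CPM in BRM libraries, 353, 373, 291 and 280 CPM in double libraries, and 435, 372, 195 and 173 CPM in NS libraries. Each BRM library exceeded all others of the series, the BRG1 and NS ranges shared only the span from 173 to 183 CPM, and the double libraries lay inside the NS range. BRG1 knockdown lowered ANXA4 by a log2 change of -0.92 ± 0.28 (edgeR adjusted p = 0.0282), and BRM knockdown raised it by 1.02 ± 0.30 (edgeR adjusted p = 0.0344). After the double knockdown the log2 change was 0.14 ± 0.28 (edgeR adjusted p = 0.779).

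In the fit without a term for library number, the ANXA4 calls ended when certain single libraries were left out. The BRG1 call ended without NS library 1 (-0.67, edgeR adjusted p = 0.103), NS library 2 (-0.84, 0.0595), BRG1 library 3 (-0.84, 0.0735) or BRG1 library 4 (-0.90, 0.0562), where 15 alternatives spanned 0.000219 to 0.103. The BRM call ended without BRM library 1 (0.94, edgeR adjusted p = 0.0789), BRM library 2 (0.87, 0.146), NS library 3 (0.86, 0.0888) or NS library 4 (0.83, 0.0845), where 14 alternatives spanned 0.000196 to 0.146. Within each pair of numbers the directions held, at -1.14 and -0.56 after BRG1 knockdown and 0.73 and 1.21 after BRM knockdown. With the replicate number as a block both calls held. The values were -0.85 (edgeR adjusted p = 0.000733) after BRG1 knockdown and 0.96 (edgeR adjusted p = 0.000883) after BRM knockdown. By gene coordinates ANXA4 overlaps AAK1 and the lincRNA AC092431.1 on the opposite strand. Whether their exons overlap was not examined. Since the strand setting is not given, reads from any shared exon stretch could not be told apart.

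ANXA6 (chr5:151100712-151157882, minus strand), which carries a duplicated core and has been located at repair caps, had the same order of groups as ANXA4. It had 123, 112, 215 and 251 CPM in BRG1 libraries, 358, 396 and 579 CPM in BRM libraries, 225, 236, 216 and 411 CPM in double libraries, and 207, 175, 274 and 260 CPM in NS libraries. The BRM libraries lay above the NS and BRG1 libraries and overlapped the double group through double library 4. Against NS the log2 change was 0.96 ± 0.31 after BRM knockdown (edgeR adjusted p = 0.0565), -0.39 ± 0.29 after BRG1 knockdown (edgeR adjusted p = 0.395) and 0.25 ± 0.29 after the double knockdown (edgeR adjusted p = 0.611). The BRM change passed in DESeq2 (0.94, adjusted p = 0.0379) and with the pair of library numbers as a term (1.05, edgeR adjusted p = 0.000524, in a range of 0.000524 to 0.244 over 14 alternatives), so that call depended on the fit. With the replicate number as a block the BRG1 value was -0.45 and passed (edgeR adjusted p = 0.0486, in a range of 0.0045 to 0.611 over 15 alternatives). The authors' deposited table gives a log2 change of 0.94 with an adjusted p of 0.0373 for ANXA6 after BRM knockdown. The reference group of that comparison is not named.

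ANXA7 (chr10:73375101-73414076, minus strand), known as synexin for its part in granule fusion, was higher in both groups that received the BRM hairpin. It had 95.1, 84.7, 91 and 87.6 CPM in BRG1 libraries, 104, 152 and 119 CPM in BRM libraries, 106, 106, 119 and 99.8 CPM in double libraries, and 73.6, 68.7, 85.6 and 86.6 CPM in NS libraries. All BRM and double libraries lay above all BRG1 and NS libraries, and BRG1 and NS overlapped. BRM knockdown raised ANXA7 by 0.67 ± 0.15 (log2, edgeR adjusted p = 0.00927), 1.59-fold, and the double knockdown raised it by 0.45 ± 0.14 (edgeR adjusted p = 0.0326), 1.37-fold. After BRG1 knockdown the change was 0.19 ± 0.14 (edgeR adjusted p = 0.393).

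The ANXA7 increases were small, sensitive to single libraries and smaller within libraries 3 and 4. The BRM change was 0.85 within libraries 1 and 2 (edgeR adjusted p = 0.00908) and 0.39 within libraries 3 and 4. The double change was 0.58 within libraries 1 and 2 (edgeR adjusted p = 0.042) and 0.30 within libraries 3 and 4 (edgeR adjusted p = 0.126). Without BRM library 2 the BRM change was 0.45 and no longer called (edgeR adjusted p = 0.118, with 0.00028 to 0.133 over 14 alternatives). The call in the double knockdown ended without NS library 1 (0.42, edgeR adjusted p = 0.0847), NS library 2 (0.35, 0.152), double library 1 (0.41, 0.0955), double library 2 (0.41, 0.0924), double library 3 (0.36, 0.141) or double library 4 (0.44, 0.0594), and with no filter on low counts (0.44, 0.119), within 0.00812 to 0.152 over 15 alternatives. By gene coordinates the antisense gene AL512656.1 overlaps ANXA7, and whether their exons overlap was not examined. Reads from any shared exon stretch could not be told apart without the strand setting.

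ANXA5 (chr4:121667955-121697113, minus strand), the phosphatidylserine-binding protein used to stain dying cells, forms lattices on exposed membrane. It had 540, 487, 451 and 505 CPM in BRG1 libraries, 294, 432 and 412 CPM in BRM libraries, 448, 477, 508 and 451 CPM in double libraries, and 373, 323, 384 and 400 CPM in NS libraries. Each library with the BRG1 hairpin lay above each NS library and each BRM library. Against NS the log2 change was 0.42 ± 0.15 after BRG1 knockdown (edgeR adjusted p = 0.054), 0.04 ± 0.16 after BRM knockdown (edgeR adjusted p = 0.922) and 0.35 ± 0.15 after the double knockdown (edgeR adjusted p = 0.11). With the replicate number as a block the BRG1 value was 0.42 and passed (edgeR adjusted p = 0.0263, in a range of 0.0135 to 0.259 over 15 alternatives). The authors' deposited table for BRG1 knockdown, whose reference group is not named, gives 0.39 with an adjusted p of 0.0215.

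ANXA2 (chr15:60347134-60402883, minus strand), which forms a heterotetramer with S100A10 at the plasma membrane, gave BRG1 values of opposite sign in the pairs of library numbers. It had 97.9, 64.4, 121 and 113 CPM in BRG1 libraries, 60.7, 80.7 and 37.9 CPM in BRM libraries, 75.6, 79.3, 21.6 and 38.6 CPM in double libraries, and 135, 131, 63.2 and 82.6 CPM in NS libraries. BRG1 libraries 1 and 2 lay below NS libraries 1 and 2, and BRG1 libraries 3 and 4 above NS libraries 3 and 4. The log2 change after BRG1 knockdown was -0.05 ± 0.38 (edgeR adjusted p = 0.945), made up of -0.71 and 0.64. After BRM knockdown it was -0.78 ± 0.42 (edgeR adjusted p = 0.256) and after the double knockdown -0.94 ± 0.39 (edgeR adjusted p = 0.101), with every double library below the NS libraries of its number. With the replicate number as a block the double value was -0.99 and passed (edgeR adjusted p = 0.0391, in a range of 0.00631 to 0.224 over 15 alternatives). Relative to BRG1 knockdown, the log2 change of ANXA2 in the double knockdown was -0.07 within libraries 1 and 2 (edgeR adjusted p = 0.843) and -1.98 within libraries 3 and 4 (edgeR adjusted p = 0.00398). By gene coordinates ANXA2 overlaps the processed pseudogene AC087385.1 on the opposite strand, and whether their exons overlap was not examined. Reads of ANXA2 could in part be assigned to or from its pseudogene copies ANXA2P1, ANXA2P2 and ANXA2P3. Those copies had at most 4 counts in any library.

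ANXA11 (chr10:80150889-80205572, minus strand), which tethers RNA granules to lysosomes, had 121, 107, 205 and 205 CPM in BRG1 libraries, 82.4, 128 and 202 CPM in BRM libraries, 109, 112, 167 and 201 CPM in double libraries, and 135, 129, 153 and 137 CPM in NS libraries. In each knockdown group libraries 1 and 2 lay below the NS libraries of their number and libraries 3 and 4 above them, so that all groups overlapped. ANXA13 (chr8:123680794-123737407, minus strand), an annexin of the intestinal epithelium, had between 1 and 14 counts per library and at most 0.961 CPM, too few to show a change at this depth. Neither gene was called in any contrast against NS, with adjusted p between 0.318 and 0.989 in edgeR.

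**Figure D2:**
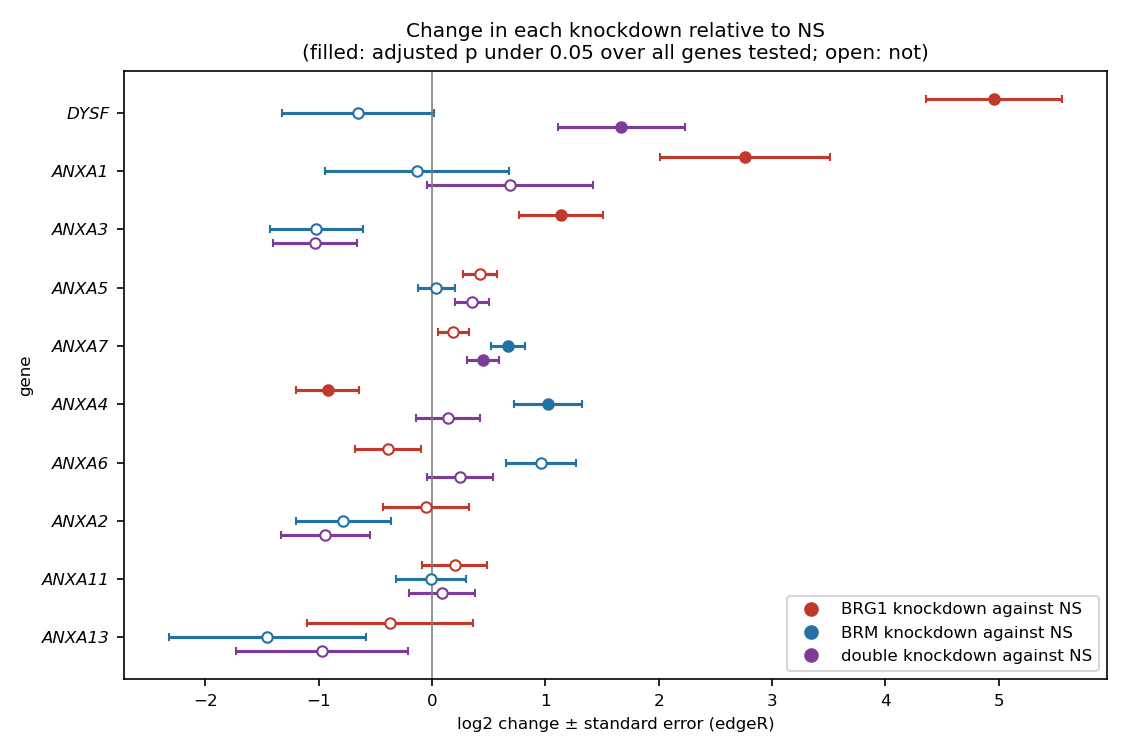
Log2 change ± SE (edgeR) of each gene in the BRG1, BRM and double knockdowns relative to NS, filled where the adjusted p over all genes tested is under 0.05. DYSF at 4.96 and ANXA1 at 2.76 after BRG1 knockdown are the largest changes, and ANXA4 lies at -0.92 and 1.02 in the single knockdowns.

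**Figure D3:**
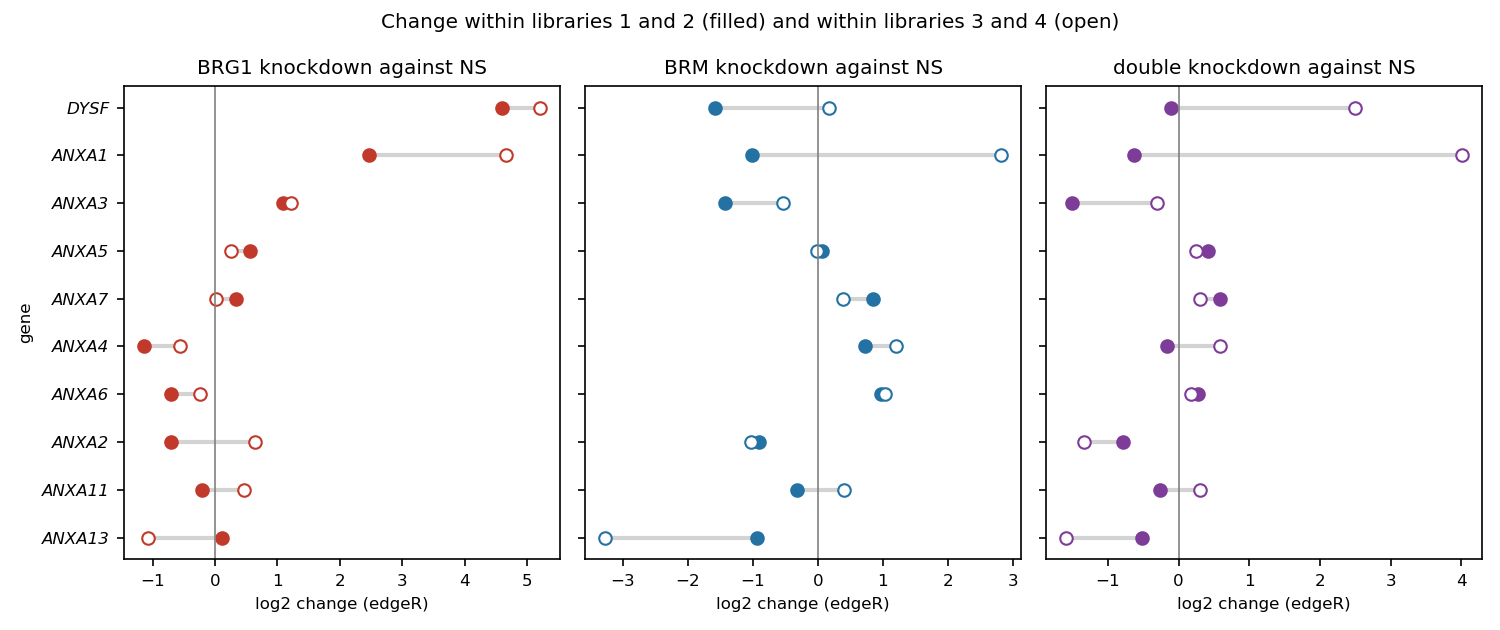
Log2 change relative to NS within libraries 1 and 2 (filled) and within libraries 3 and 4 (open) for each gene and knockdown, with 1 BRM library among those numbered 3 and 4. ANXA1 lies at -0.63 and 4.01 in the double knockdown, while ANXA3 lies at 1.09 and 1.21 after BRG1 knockdown.

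Set directly against each other, the single knockdowns separated DYSF, ANXA1 and ANXA3, higher after BRG1 knockdown, from ANXA4, ANXA6 and ANXA7, higher after BRM knockdown. In the BRG1 knockdown against the BRM knockdown, 6 members were called where 33.9% of all genes were, 3 higher (17.2% of all genes) and 3 lower (16.7%), and 7 had no overlap where 37.3% of all genes had none. DYSF was 48.8-fold higher (log2 difference 5.61 ± 0.71, edgeR adjusted p = 3.65e-05), ANXA3 4.48-fold higher (2.16 ± 0.42, edgeR adjusted p = 0.00117) and ANXA1 7.43-fold higher (2.89 ± 0.85, edgeR adjusted p = 0.0163) in BRG1 libraries. ANXA4 stood at 0.261 (log2 difference -1.94 ± 0.30, edgeR adjusted p = 0.000194), ANXA6 at 0.394 (-1.34 ± 0.31, edgeR adjusted p = 0.00413) and ANXA7 at 0.717 (-0.48 ± 0.15, edgeR adjusted p = 0.0237) of the BRM level. For ANXA5 the difference was 0.39 ± 0.16 (edgeR adjusted p = 0.0786), and 0.39 with the replicate number as a block (edgeR adjusted p = 0.0495, in a range of 0.0292 to 0.323). The ANXA1 call ended without BRM library 1 (2.77, edgeR adjusted p = 0.0526, in a range from 2.08e-05), and the ANXA7 call without BRG1 library 2 (-0.45, 0.0609) or BRM library 2 (-0.31, 0.176) and with no filter on low counts (-0.46, 0.0924), in a range from 0.00446.

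In the double knockdown against the BRG1 knockdown, 3 members were called where 10.8% of all genes were, 1 higher (4.1% of all genes) and 2 lower (6.72%), and 5 had no overlap where 18.8% of all genes had none. DYSF and ANXA3 were lower, as given above, and ANXA4 was 2.09-fold higher (log2 change 1.06 ± 0.28, edgeR adjusted p = 0.0249). The ANXA4 call ended without double library 1 (1.03, edgeR adjusted p = 0.0687), double library 2 (0.99, 0.074), BRG1 library 3 (0.98, 0.069) or BRG1 library 4 (0.99, 0.0655), in a range of 6.28e-05 to 0.074 over 15 alternatives. ANXA1 and ANXA7 were the members with no overlap that were not called. SMARCA4 itself was higher in the double group (46.2 CPM) than in the BRG1 group (27.8 CPM), by a log2 change of 0.73 (edgeR adjusted p = 0.00858). The part of that in any gene's difference between these groups was not tested.

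Whether the knockdowns combined additively was tested by the interaction, the double change minus the sum of the single changes on the log2 scale. For DYSF the double change was 1.67 against a sum of 4.30, an interaction of -2.64 ± 0.85 (edgeR adjusted p = 0.192). For ANXA1 the double change was 0.69 against 2.63 (interaction -1.94 ± 1.07, edgeR adjusted p = 0.528), and for ANXA3 it was -1.03 against 0.12 (-1.14 ± 0.54, edgeR adjusted p = 0.427). For ANXA4, whose single changes were opposite, it was 0.14 against 0.10 (0.04 ± 0.41, edgeR adjusted p = 0.991). No member was called by edgeR, where 0.499% of all genes tested were (0.103% higher and 0.397% lower). DYSF was the 1 member with an unadjusted p under 0.05, and DESeq2 called 0. With the pair of library numbers as a term the DYSF interaction was -2.79 (edgeR adjusted p = 0.0378, in a range of 0.0314 to 0.526 over 22 alternatives).

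**Figure D4:**
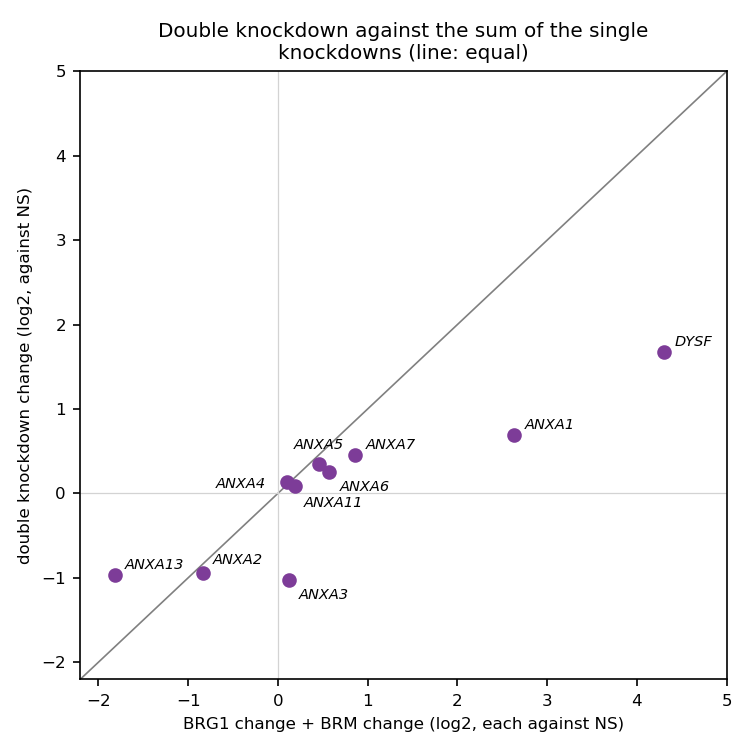
Log2 change of each gene in the double knockdown relative to NS (vertical) against the sum of its changes in the BRG1 and BRM knockdowns (horizontal), with the line of equality. DYSF (1.67 against 4.30), ANXA1 (0.69 against 2.63) and ANXA3 (-1.03 against 0.12) lie below the line, with adjusted p of 0.192 or more for the difference.

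Partner and related genes were described from lists. Of 8 further annexins, annexin A2 pseudogenes and the receptor gene ANXA2R, 3 passed the filter. ANXA9, an atypical annexin that lacks usual calcium sites, had 7.85, 8.79, 16 and 18 CPM in BRG1 libraries, 69.9, 90.6 and 106 CPM in BRM libraries, 35, 43.8, 30 and 66.9 CPM in double libraries, and 35.5, 31.6, 39.4 and 31.2 CPM in NS libraries. Its BRG1 libraries lay below and its BRM libraries above all the NS libraries, the same order of these groups as for ANXA4. BRG1 knockdown lowered it by a log2 change of -1.44 ± 0.29 (edgeR adjusted p = 0.00264) and BRM knockdown raised it by 1.37 ± 0.31 (edgeR adjusted p = 0.00873). ANXA2R rose by a log2 change of 1.60 ± 0.43 with both hairpins (edgeR adjusted p = 0.0148) and of 1.84 ± 0.43 with the BRG1 hairpin alone (edgeR adjusted p = 0.00608). Its level was low, at 0.568 ± 0.342 CPM in NS libraries (1 to 18 counts each) and at most 2.58 CPM in any library. ANXA8 and its near-identical copy ANXA8L1 had at most 3.31 CPM in any library and are uncertain.

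Among the other ferlins, 3 of 5 passed the filter, and 1 was called after BRG1 knockdown. That gene was myoferlin (MYOF), the closest relative of dysferlin, with 165, 203, 96.9 and 99.6 CPM in BRG1 libraries, 5.48, 10.1 and 6.45 CPM in BRM libraries, 36.1, 30.6, 67.9 and 52.1 CPM in double libraries, and 11.9, 11.9, 6.18 and 5.16 CPM in NS libraries. The BRG1 libraries were highest, the double libraries lay between them and NS with no overlap on either side, and BRM overlapped NS. MYOF rose by 2.41 ± 0.37 (log2) in the double knockdown (edgeR adjusted p = 0.000337), by 1.48 within libraries 1 and 2 and 3.38 within libraries 3 and 4, and lay 1.60 below BRG1 knockdown there (log2 change -1.60 ± 0.35, edgeR adjusted p = 0.00908). In the BRM knockdown edgeR called 0 of the 3, 1 had an unadjusted p under 0.05 and DESeq2 called 0.

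Of 16 S100 genes 13 passed the filter, with a median log2 change of 1.06 after BRG1 knockdown, -1.24 after BRM knockdown and 0.40 after the double knockdown, beside 0.02, 0.03 and 0.02 over all genes. After BRG1 knockdown 6 rose (12.5% of all genes did) and 0 fell (9.97%). After BRM knockdown 0 rose (7.66% of all genes) and 6 fell (6.26%), and after the double knockdown 4 rose (11.8%) and 3 fell (9.9%). S100A11, a partner of ANXA1, averaged 246 ± 25.9 CPM in BRG1, 16.3 ± 6.19 CPM in BRM, 144 ± 25.1 CPM in double and 42 ± 15 CPM in NS libraries. It rose by 2.55 ± 0.28 after BRG1 knockdown (log2, edgeR adjusted p = 2.78e-05), fell by 1.37 (SE 0.30) after BRM knockdown (edgeR adjusted p = 0.00759) and rose by 1.77 ± 0.27 after the double knockdown (edgeR adjusted p = 0.000358). S100A10, the partner of ANXA2, averaged 194 ± 38.8 CPM in BRG1, 157 ± 49.7 CPM in BRM, 194 ± 31.7 CPM in double and 93 ± 43 CPM in NS libraries, and rose by 1.06 in the BRG1 (edgeR adjusted p = 0.0198) and in the double knockdown (edgeR adjusted p = 0.0202). S100A6, which binds ANXA11, rose by 1.73 ± 0.29 after BRG1 knockdown (edgeR adjusted p = 0.000686).

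Of 29 genes of the membrane repair machinery 28 passed the filter. Of these, 9 rose and 2 fell after BRG1 knockdown (12.5% and 9.97% of all genes), 1 rose and 0 fell after BRM knockdown (7.66% and 6.26%), and 9 rose and 2 fell after the double knockdown (11.8% and 9.9%). The median log2 change was 0.43 after BRG1, 0.25 after BRM and 0.40 after the double knockdown, beside 0.02, 0.03 and 0.02 over all genes. CAPN2, the large subunit of m-calpain, a calcium-activated protease, averaged 317 ± 67.6 CPM in BRG1, 62.5 ± 18.3 CPM in BRM, 168 ± 27.3 CPM in double and 47.5 ± 11 CPM in NS libraries, and rose by 2.74 ± 0.24 after BRG1 knockdown (log2, edgeR adjusted p = 5e-06). EHD2, an ATPase at the neck of caveolae, averaged 41.4 ± 4.07 CPM in BRG1, 2.39 ± 1.18 CPM in BRM, 29.2 ± 18.6 CPM in double and 1.55 ± 0.395 CPM in NS libraries. Its log2 change was 4.72 ± 0.47 in the BRG1 group (edgeR adjusted p = 1.58e-05) and 4.22 ± 0.46 in the double group (edgeR adjusted p = 2.72e-05), there 2.89 within libraries 1 and 2 and 4.97 within libraries 3 and 4. CAPN3, the muscle calpain, was the gene that rose after BRM knockdown (1.88 ± 0.56, edgeR adjusted p = 0.0378), by 1.21 within libraries 1 and 2 and 3.22 within libraries 3 and 4. TRIM72, the muscle repair ligase, was among the 2 that fell in the double knockdown (log2 change -1.11 ± 0.34, edgeR adjusted p = 0.0286). It had 1.42 to 2.16 CPM in double and 1.81 to 5.93 CPM in NS libraries, so the ranges overlapped. The NS mean of TRIM72 was 5.39 CPM in libraries 1 and 2 and 2.24 CPM in libraries 3 and 4. The double means were 1.79 and 1.74 CPM.

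Of 9 genes for phosphatidylserine scramblases and formyl peptide receptors 6 passed the filter, and the receptors FPR1, FPR2 and FPR3, which bind ANXA1, did not. The scramblase XKR8, which exposes phosphatidylserine in dying cells, rose in the double knockdown (21.1 ± 4.81 CPM, against 9.69 ± 1.61 CPM in NS libraries, log2 change 1.12 ± 0.29, edgeR adjusted p = 0.0121). In the single knockdowns edgeR called 0 of the 6 and DESeq2 0, with 2 genes after BRG1 and 0 after BRM knockdown at an unadjusted p under 0.05.

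**Figure D5:**
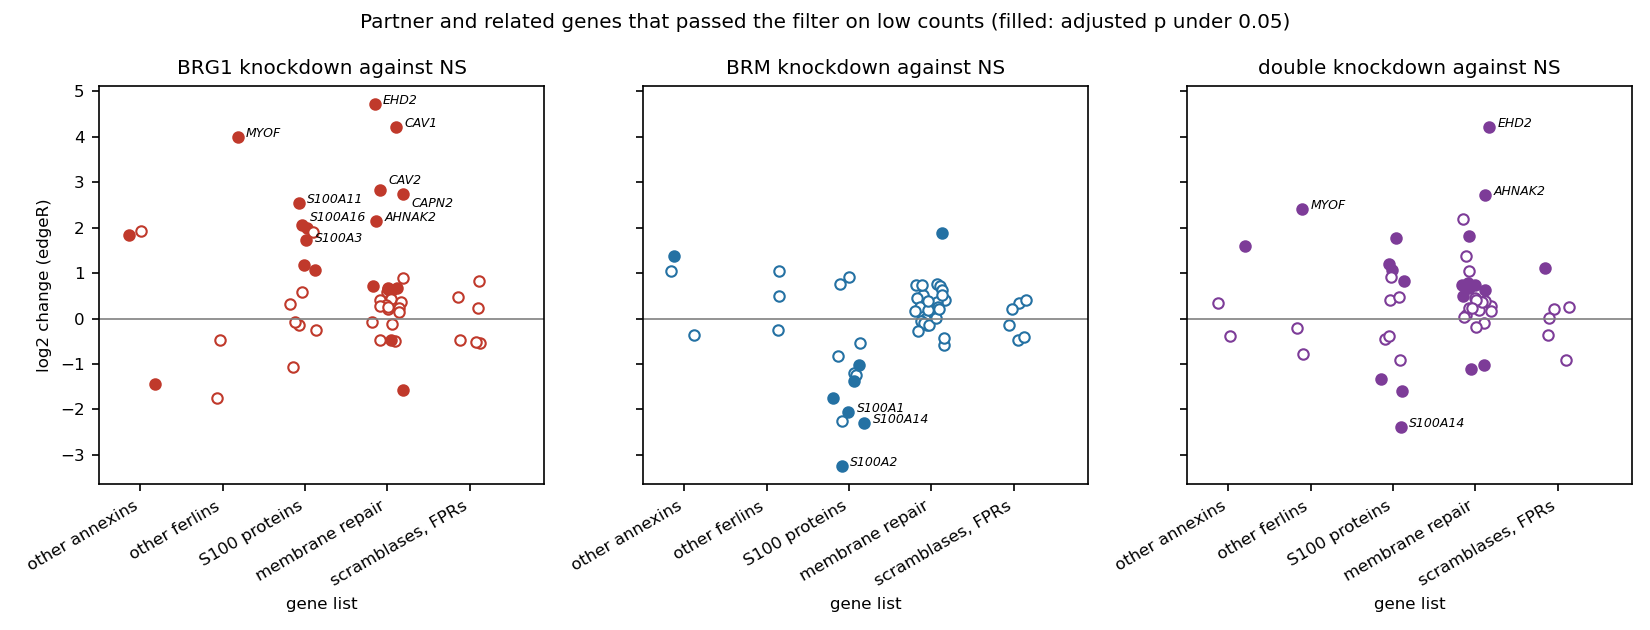
Log2 change (edgeR) of the genes of 5 lists that passed the filter, in the BRG1, BRM and double knockdowns relative to NS, filled where the adjusted p is under 0.05 and named where a filled point lies beyond about 2. Filled S100 genes number 6 above 0 after BRG1 knockdown (12.5% of all genes rose), 6 below 0 after BRM knockdown (6.26% of all genes fell), and 4 above and 3 below 0 after the double knockdown (11.8% and 9.9% of all genes).

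Genes with the most similar pattern were ranked by Pearson's r of log2 CPM over the 15 libraries, among 11895 genes, as a description over libraries that share depth and library number. Those closest to DYSF were KIF3C (0.973), a kinesin motor, OTUB2 (0.963), a deubiquitinase, and CSF1 (0.961), the macrophage growth factor. ANXA1 was closest to the serine protease PRSS23 (0.970), then EFR3B and USP35 (0.968 each). ANXA3 was closest to PROM1 (0.976), a membrane protein of epithelial progenitors, then NFE2L3 (0.969) and TSC22D1 (0.956). ANXA4 was closest to PTGR1 (0.981), an NADPH-dependent reductase, then AL109918.1 (0.977) and TLCD2 (0.962), and ANXA6 to ARSE (0.978), DCAF11 (0.974) and CERS4 (0.970). The nearest genes of ANXA5 (RHBDD1, 0.931), ANXA7 (MRPL45, 0.954), ANXA11 (GNL1, 0.969) and ANXA2 (POP5, 0.915) had lower r. Among the 9 members compared, without ANXA13, which is under 2 CPM, the highest r was 0.738, between ANXA1 and DYSF, and the lowest -0.831, between ANXA3 and ANXA6.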

How the data were processed

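RNA-seq was measured in 15 HepG2 libraries. The deposited matrix gives estimated counts, all whole numbers, for each gene symbol. They passed a rounding step before the tests, which leaves whole numbers unchanged. The submitters' processing notes name kallisto, DESeq2 and GRCh38, while versions, annotation and strandedness were not given in the sources used here. Per the file headers, the authors' tables of comparisons hold a log2 fold change with its error, the Wald test's score, a p-value with its adjusted value and a mean signal per gene scaled by size factors. Kallisto splits reads between similar transcripts by estimation, which affects values of near-identical or overlapping genes.

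Genes passing filterByExpr (14621) went into a robust quasi-likelihood F test in edgeR 4.0.16 (R 4.3.3) with TMM factors and all 15 libraries in 1 fit, two-sided, adjusted by Benjamini-Hochberg over all of them. The standard error is the size of the log2 change divided by the square root of F. CPM uses TMM-scaled totals, and log2 CPM for pattern likeness used a prior count of 2. Alternatives were RLE scaling, DESeq2 1.42.0, no filter, the replicate number as a block, the pair of library numbers (1 and 2 against 3 and 4) as a term, each pair alone, and leaving out each library. Replicate numbers come from the labels. Same-numbered libraries deviated together in all pairs for BRG1 with NS (r 0.427 to 0.565), for the double group with NS (r 0.179 to 0.454) and for BRG1 with BRM (r 0.104 to 0.532). In these comparisons 4 of 8, 3 of 8 and 2 of 6 libraries correlated best with their own number. The numbers are therefore not shown to mark a pairing. No libraries of a group agreed within sampling noise. Chi-square per degree of freedom was 5.21 to 66.3 between libraries of the same pair of numbers. Between libraries of different pairs it was 98.9 to 226. The main fit has no term for the pairs, so that difference counts in its spread.

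Levels per kilobase use merged exons of GENCODE v29 basic protein-coding transcripts, and promoter windows come from RefSeq. Named genes were the members, SMARCA4, SMARCA2, up to 3 called genes per list and knockdown by smallest adjusted p, members a count needed, and the 3 genes most like each member of at least 2 CPM. S100A10 and TRIM72 were named after their values were seen. The members, lists and motifs were chosen with earlier results of these data known.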

Additional observations from a re-analysis of the deposited data

Results flagged for a closer look

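Single libraries stood apart from the other 3 of their group in 2 of the 30 groups of 4 libraries examined by the gap of the end value relative to the range, and chance gives about 1 in 20. Double library 3 had 5.86 CPM of ANXA1, with 2.36 to 2.68 CPM in the other double libraries. Double library 4 had 411 CPM of ANXA6, with 216 to 236 CPM in the other double libraries.

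The change against NS differed between libraries 3 and 4 and libraries 1 and 2, by an interaction in edgeR added after the data had been seen. For ANXA1 the difference was 4.69 on the log2 scale in the double knockdown (adjusted p = 0.00223) and 3.91 in the BRM knockdown (adjusted p = 0.0235), where 1 BRM library carries the higher number. For DYSF it was 2.66 (adjusted p = 0.0298) and for ANXA4 0.79 (adjusted p = 0.0338), both in the double knockdown. Of all genes tested, 3.71% passed in the double and 2.26% in the BRM knockdown, and mitochondrial counts differed between the pairs of numbers in every group. What sets the numbers apart was not tested.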

How the results depend on the processing

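RLE scaling moved no member across the threshold or in direction. For each cause below, the cause was not tested. With the replicate number as a block, all genes called were 5318 in BRG1 against NS, 4153 in BRM against NS, 5200 in double against NS, 3259 in double against BRG1 and 633 for the interaction, and members called were 4 in BRM against NS, 4 in double against NS and 5 in double against BRG1. For BRM and NS (r from 0.0733) and double and BRG1 (r from 0.0578) the numbers share only a number, and 3 of 6 and 3 of 8 libraries correlated best with their own number. With the pair of library numbers as a term, all genes called were 5720, 4684, 5646 and 3728 in the same 4 comparisons, 7659 in BRG1 against BRM and 1061 for the interaction, and members called were 4 in BRM against NS, 5 in double against NS, 5 in double against BRG1 and 1 for the interaction. Within libraries 1 and 2, all genes called were 5645 in BRG1 against NS, 4064 in BRM against NS, 3981 in double against BRG1 and 1619 for the interaction, and members called were 7, 6, 5 and 3. Within libraries 3 and 4, all genes called were 3061 in BRM against NS, 5045 in double against NS and 243 for the interaction, and members called were 4 in double against NS and 1 for the interaction. DESeq2 called 453 genes for the interaction. With no filter on low counts, edgeR called 0 members and 2656 of all genes in double against NS. With the filter, 5 members were at an unadjusted p under 0.05 in edgeR. DESeq2, run on all genes with any count, called 3 members and 3861 of all genes.

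Leaving out each library gave 2 to 3 members called in BRG1 against NS, 0 to 2 in BRM against NS (0 without BRM library 2), 0 to 2 in double against NS, 2 to 3 in double against BRG1 and 5 to 6 in BRG1 against BRM. All genes called ranged from 2384 to 3165 in BRG1 against NS and from 959 to 2063 in BRM against NS. They ranged from 2316 to 2978 in double against NS and from 934 to 1397 in double against BRG1. The ranges were 3929 to 4782 in BRG1 against BRM and 38 to 166 for the interaction.

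Some changes turned sign, among them the called rise of DYSF in double against NS. In BRG1 against NS these were ANXA2 (0.10 with the block, 0.09 with the term, 0.64 within libraries 3 and 4, -0.23 to 0.10 leaving out libraries), ANXA11 (-0.21 within libraries 1 and 2) and ANXA13 (0.11 within libraries 1 and 2, -0.84 to 0.02 leaving out libraries). In BRM against NS they were ANXA1 (0.05 with the term, 2.82 within libraries 3 and 4, -0.52 to 0.79), ANXA5 (0 with no filter, -0.01 within libraries 3 and 4, -0.12 to 0.19), ANXA11 (0 with the block, 0.01 with the term, 0.40 within libraries 3 and 4, -0.43 to 0.25) and DYSF (0.18 within libraries 3 and 4). In double against NS they were, within libraries 1 and 2, ANXA1 (-0.63), ANXA4 (-0.16), ANXA11 (-0.26) and DYSF (-0.11), and, leaving out libraries, ANXA4 (-0.05 to 0.39), ANXA6 (-0.07 to 0.34) and ANXA11 (-0.15 to 0.16). ANXA11 turned in double against BRG1 (-0.30 to 0.04) and in BRG1 against BRM (-0.05 to 0.59). For the interaction they were ANXA2 (0.84 within libraries 1 and 2, -0.31 to 0.23), ANXA4 (-0.05 within libraries 3 and 4, -0.21 to 0.23), ANXA5 (0.01 within libraries 3 and 4, -0.26 to 0.06) and ANXA11 (0.28 within libraries 1 and 2, -0.37 to 0.33). Depth limits ANXA13 (1 to 14 counts per library) and ANXA1 and DYSF in NS libraries.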
